A study of Mus musculus with 20 samples.

Results

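The interleukin-1 (IL-1) and interleukin-33 (IL-33) family was followed through the growth of mouse colonic organoids (colonoids) with and without TNFR2, the second receptor for tumour necrosis factor. The group comprised 8 genes of the 35240 gene symbols measured: the ligands Il33, Il1a, Il1b and Il18, the receptor antagonist Il1rn, and the receptors Il1rl1, Il1r1 and Il1rap. They were chosen by family membership, with their levels and genotype differences in these libraries already known and with no threshold on them. Their values are therefore given as a description, and the adjusted p-values printed for them say where each gene stood among all genes and are no independent support.

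Cytokines of this family are made mostly without a signal peptide and are released from stressed or dying cells. IL-1 alpha and IL-33 are active or nearly active as made and act as alarm signals of epithelial and stromal cells, whereas IL-1 beta and IL-18 are cut by inflammasome caspases. Each ligand binds its own receptor, IL1R1 for IL-1 and ST2 (encoded by Il1rl1) for IL-33. For IL-1 and IL-33, IL1RAP then joins as the shared second chain, and MyD88 and IRAK kinases carry the signal to NF-kappaB. In the colon the family is known for its part in barrier injury and repair, and for signalling between the epithelium and the fibroblasts and immune cells beneath it.

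WT (C57BL/6) mice were compared with mice that lacked Tnfr2 (gene Tnfrsf1b) in the whole body (B6.129S2-Tnfrsf1b tm1Mwm/J). The culture methods of the study give them as male and female and 8 weeks old, without an age or sex per library. Crypts of the distal colon were grown in Matrigel, passaged 5 times and collected on days 1 to 3, on day 5 and on day 7 after the last passage (days post-passage, DPP). There were 20 libraries in 10 groups, with 2 libraries per group. The design text of the series gives 2 mice of each genotype, whereas the study's culture methods give 3 for each experiment. Replicate numbers were read as naming the mouse, so that every mouse gave 1 library a day. The cultures were not pure epithelium, and the study itself found fibroblasts in them.

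Transcript abundances (TPM) that had been normalised by size factors were summed per gene and are called normalised expression. They are scaled for transcript length, so levels can be compared between genes, but they keep no read counts, and the number of reads behind each value is not known. The study's methods give only an approximate read number for its samples in general. Between 13007 and 13469 genes per library stood at 1 or more. Tnfrsf1b, the check of the labels, lay between 11.1 and 21.9 in WT and between 2.71 and 11.5 in Tnfr2-/- libraries, and at every day both Tnfr2-/- libraries were below both WT libraries. All 7 epithelial markers were present, with a summed level of 11327 to 19611. Of 5 mast cell markers Cpa3, Mcpt4, Tpsb2 and Fcer1a were listed at 0 in all 20 libraries and Kit, which other cells express too, in 3 (mean 1.44, highest 15.5). Of 8 immune cell markers Cd68 averaged 17.6, Csf1r 3.27 and Lyz2 1.53, and the other 5, Ptprc among them, averaged 0.0075 to 0.22.

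Over all libraries pooled, Il1rl1 had the highest mean level (517 ± 485, SD, n = 20), followed by Il1rn (177 ± 72.9), Il1r1 (44.2 ± 15.8), Il18 (23.8 ± 10.3), Il1rap (22.7 ± 9.99), Il33 (18.4 ± 11.3) and Il1a (16.3 ± 11.3). Il1rl1 exceeded Il1rn in only 14 of 20 libraries, and in WT its median was 65.4 against 179 for Il1rn. Il1rn exceeded Il1r1 in 20 of 20 libraries and Il1r1 exceeded Il18 in 18. The neighbours Il18, Il1rap, Il33 and Il1a did not differ beyond their spread, since each was above the next in only 11, 10 and 12 of 20 libraries. Il1b was listed at 0 in all but 2 libraries, WT mouse 2 at 1 DPP (0.13) and at 7 DPP (0.40).

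**Figure D1:**
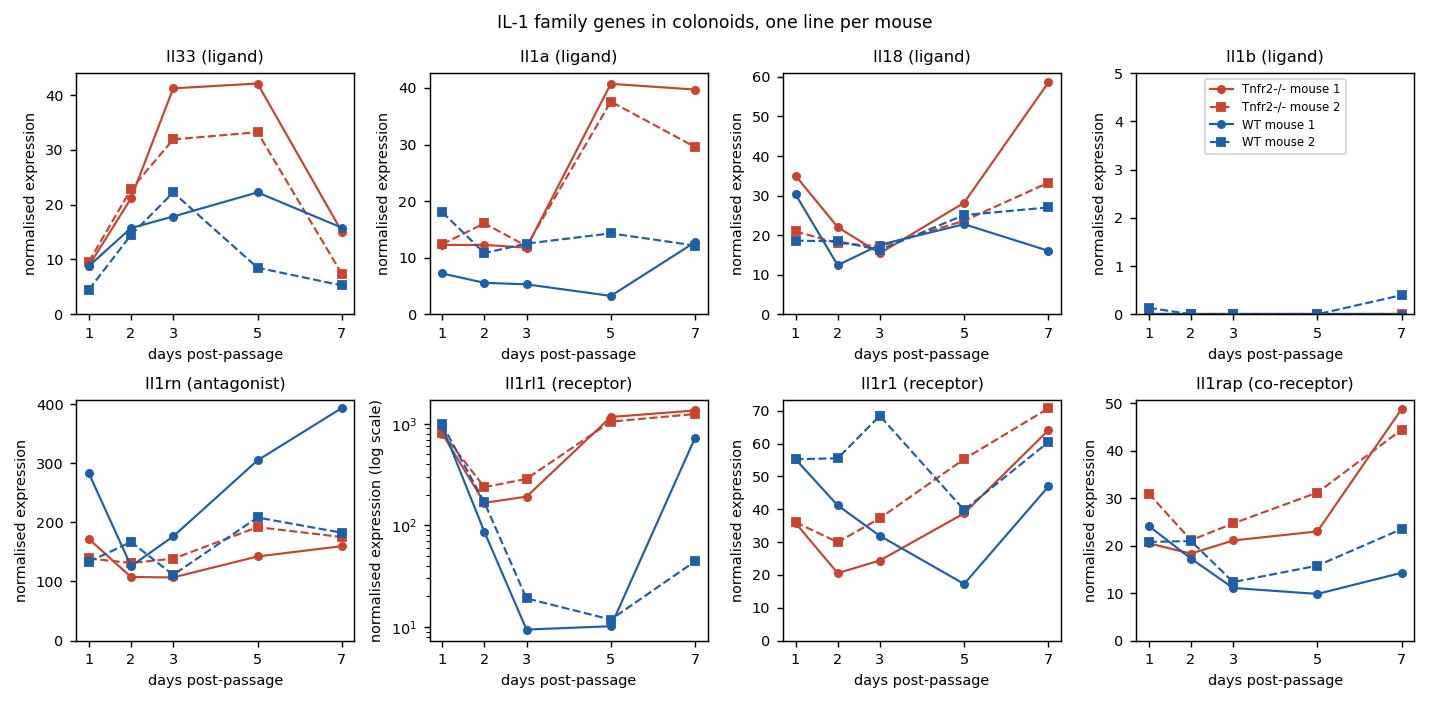
Normalised expression of the 8 genes (vertical axes, logarithmic for Il1rl1 and linear for the others) against days post-passage (horizontal axis), 1 line per mouse, blue for WT and red for Tnfr2-/-, with no error bars because each point is 1 library. Il1rl1 fell in all 4 mice after 1 DPP, was 1168 and 1051 in the Tnfr2-/- mice at 5 DPP against 10.2 and 11.8 in the WT mice, and returned to 731 at 7 DPP in WT mouse 1 but only to 44.3 in WT mouse 2.

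Il1rl1 encodes ST2, the receptor for IL-33, and lies on chromosome 1 (40429570 to 40465415, plus strand, GRCm38). In WT mouse 1 its normalised expression was 943, 86.5, 9.41, 10.2 and 731 in order of the days. In WT mouse 2 it was 989, 169, 19.1, 11.8 and 44.3. All 4 mice therefore started high and fell by 2 DPP, and in both WT mice the gene went on falling to a low at 3 and 5 DPP. From 1 to 3 DPP the fall was 100-fold in WT mouse 1 and 51.8-fold in WT mouse 2.

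Tnfr2-/- cultures followed another course. Il1rl1 was 802, 167, 192, 1168 and 1353 in Tnfr2-/- mouse 1, and 819.5, 238, 287, 1051 and 1250 in Tnfr2-/- mouse 2. The early fall was thus smaller (4.18-fold and 2.86-fold from 1 to 3 DPP), and by 5 DPP both mice had passed their starting level. In the same order, the ratio of the Tnfr2-/- mean to the WT mean was 0.839, 1.58, 16.8, 101.04 and 3.36. At 3, 5 and 7 DPP both Tnfr2-/- libraries lay above both WT libraries, and at 1 DPP both lay below. Such a separation on 1 day sets only 2 libraries against 2. Its share over all genes was not computed, here or for the members below, so it is a description.

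On the late days (5 and 7 DPP), the WT libraries reached 731 at most and the Tnfr2-/- libraries 1051 at least, so the groups did not overlap. In limma, fitted on log2(value + 1) over 13539 genes, the late genotype effect on Il1rl1 was 4.69 as a log2 fold change (SE 0.59, with an adjusted p of 0.000613), and over all days it was 2.77 (SE 0.66, adjusted p 0.0171), a call that was lost without Tnfr2-/- mouse 1 (adjusted p 0.112) or mouse 2 (0.174). The late effect kept its call without each library in turn, and its size rested on the WT libraries at 7 DPP: it was 5.69 without that of mouse 1 and 3.68 without that of mouse 2. The early effect (1, 2 and 3 DPP) of 1.496 was not called (SE 0.48, adjusted p 0.185), where called means an adjusted p under 0.05. Nor was the difference between the late and the early effect, 3.19 (SE 0.76, adjusted p 0.146). That difference turned on the libraries at 7 DPP, where the WT mice stood far apart. It was called without WT mouse 1 at 7 DPP (4.19, adjusted p 4.35e-05) and without WT mouse 2 at 7 DPP (2.19, 0.0294), and the early effect likewise (1.496 in both fits, adjusted p 0.00171 and 0.00167).

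Fibroblast markers are given beside the late difference. The summed level of 9 fibroblast markers was 1225 to 3978 in the 4 late WT libraries and 3694 to 8496 in the 4 late Tnfr2-/- libraries, so the ranges overlapped. Dcn and Vim were called higher late, none of the 9 was called lower, and none was at 0. Over all days the Tnfr2-/- mean was below the WT mean for Pdgfra (50.8 against 57.0) and Col3a1 (1398 against 1490) and above it for the others. Bulk libraries cannot tell more cells of a type from more RNA per cell. At 5 DPP the sum was 1225 and 3281 in the WT mice, where Il1rl1 stood at 10.2 and 11.8, and 3694 and 5077 in the Tnfr2-/- mice, where it stood at 1168 and 1051. At 7 DPP the sum was 1796 and 3978 in the WT mice (Il1rl1 at 731 and 44.3) and 7878 and 8496 in the Tnfr2-/- mice (1353 and 1250). Of the WT mice at 7 DPP, the one with the lower sum had the higher Il1rl1. The part of these markers in the Il1rl1 difference was not tested.

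Il1rl1 makes a membrane receptor and a shorter soluble one, a decoy that binds IL-33 without signalling. The coding sequences share their first 985 bases and part at position 40446675 of chromosome 1. There the soluble transcript Il1rl1-203 reads on and adds 26 coding bases, for 337 codons, and the membrane transcript Il1rl1-202 is spliced to further exons, for 567 codons. The sequences around this point (GENCODE M21, GRCm38) show what separates the transcripts, with shared bases in lower case and form-specific bases in capitals.
Il1rl1-203: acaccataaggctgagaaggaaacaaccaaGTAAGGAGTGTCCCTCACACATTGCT
Il1rl1-202: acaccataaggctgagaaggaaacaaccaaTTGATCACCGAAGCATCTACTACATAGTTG

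Among transcripts of a known form, the soluble one dominated at every time. Il1rl1-203 held 61.4% of the gene's signal over all libraries, Il1rl1-205, which encodes the same 337 codons from a start further upstream (40429570), held 7.71%, and Il1rl1-202 held 3.83%. Another 27.1% was assigned to Il1rl1-204, a fragment of 65 codons with an incomplete coding sequence, which names neither form. Among transcripts of a known form, the soluble share had a median of 93.9% over 20 libraries (lowest 85.0%, highest 96.4%). In Tnfr2-/- libraries it ranged from 93.2% to 96.4% and in WT libraries from 85.0% to 94.5%. The 4 shares under 91% were those of the WT mice at 3 and 5 DPP, where the membrane form was at 0.53 to 1.44.

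The membrane form fell after 1 DPP in all 4 mice as well. In Tnfr2-/- mice the soluble form had passed its 1 DPP level by 5 DPP. The membrane form was then still below its own, by little in mouse 1 (31.3 against 32.4). It was 37.4, 6.31, 0.53, 1.44 and 30.3 in WT mouse 1, and 61.2, 7.71, 1.27, 1.03 and 2.04 in WT mouse 2. The Tnfr2-/- mice had 32.4, 8.20, 9.63, 31.3 and 34.5 (mouse 1) and 44.3, 9.30, 10.5, 29.2 and 40.2 (mouse 2). In the fit over 38671 transcripts, of which 0.61% were called for the late genotype effect (0.714% over all days and 0.142% early), Il1rl1-203 (log2 4.43, SE 0.52, adjusted p 0.0029), Il1rl1-202 (3.47, SE 0.52, 0.0132), Il1rl1-204 (5.32, SE 0.94, 0.0267) and Il1rl1-205 (4.45, SE 0.88, 0.0447) were all called higher. The call of Il1rl1-203 held without each library in turn. That of Il1rl1-202 was lost without Tnfr2-/- mouse 2 at 7 DPP (0.0572), that of Il1rl1-204 in 5 of 20 such fits (WT mouse 1 at 5 DPP and each late Tnfr2-/- library, up to 0.107) and that of Il1rl1-205 in 18 of 20 (all but the WT libraries at 7 DPP, up to 0.153). For late against early in Tnfr2-/- cultures, Il1rl1-205 was called (3.90, SE 0.80, adjusted p 0.0204, with 3.33% of transcripts called), and no transcript of a member was called for that comparison in WT (3.41%), for the genotype effect over all days or early, or for the late against the early effect (0.0207%).

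**Figure D2:**
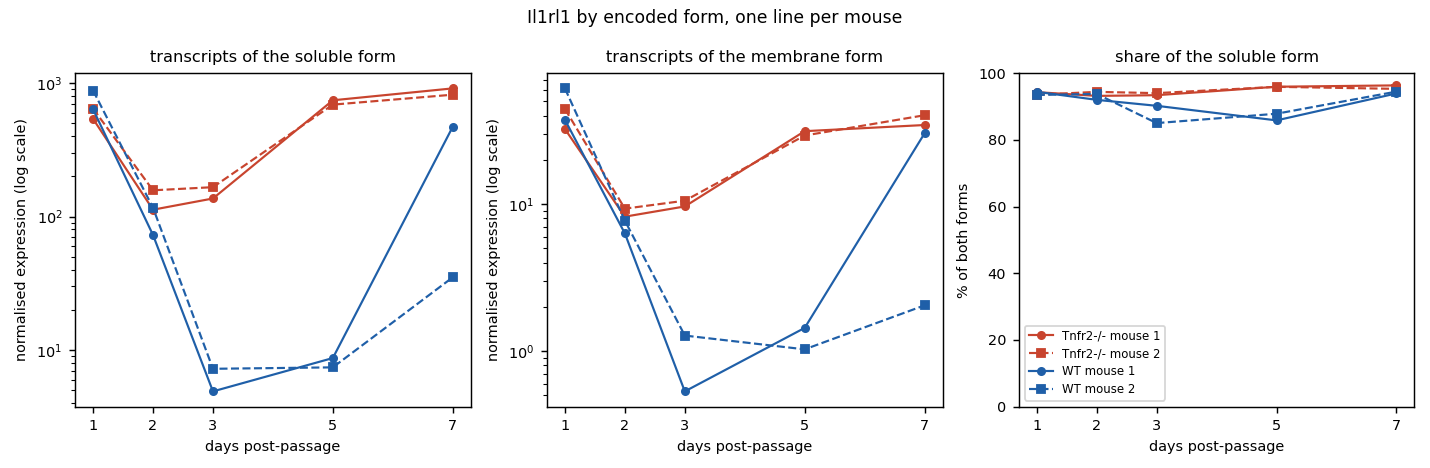
Normalised expression of Il1rl1 transcripts of the soluble form (left, logarithmic axis) and of the membrane form (middle, logarithmic axis), and the soluble share in percent of both (right), by days post-passage with 1 line per mouse and no error bars. Both forms fall after 1 DPP in all 4 mice, stay low at 3 and 5 DPP in WT mice and are higher at 5 than at 3 DPP in both Tnfr2-/- mice, and the soluble share stays between 85.0% and 96.4% in every library.

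The ligand of ST2, Il33 (chromosome 19, 29925114 to 29960718, plus strand), is a nuclear cytokine of barrier and stromal cells. It was 8.82, 15.7, 17.8, 22.2 and 15.8 in WT mouse 1, and 4.50, 14.5, 22.2, 8.50 and 5.26 in WT mouse 2. In Tnfr2-/- mice it was 8.87, 21.2, 41.2, 42.1 and 15.1, and 9.60, 22.8, 31.9, 33.2 and 7.38. Il33 was thus lowest at 1 DPP or 7 DPP in every mouse and rose from 1 to 3 DPP in all 4, by 2.02-fold to 4.94-fold. At that time Il1rl1 fell.

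At 1, 2, 3 and 5 DPP both Tnfr2-/- mice were above both WT mice, with ratios of means of 1.39, 1.46, 1.83 and 2.45, and at 7 DPP the mice overlapped. The gap at 1 DPP was narrow, with 8.87 in Tnfr2-/- mouse 1 against 8.82 in WT mouse 1. The genotype effect over all days was a log2 of 0.67 (SE 0.21, limma adjusted p 0.0606), just outside the threshold. It was called without WT mouse 1 at 1 DPP (0.0472), WT mouse 1 at 7 DPP (0.0133) or Tnfr2-/- mouse 2 at 7 DPP (0.0359). The late effect, 0.77 (SE 0.34, adjusted p 0.193), was not called. It was called without both late libraries of WT mouse 1 (1.45, adjusted p 0.0201), and without WT mouse 2 at 7 DPP it was 0.42. Reads of Il33 were spread over 5 transcripts that each held 6.42% to 26.1% of the gene, and none of them was called in any comparison.

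Il1a (chromosome 2, 129299610 to 129309972, minus strand) encodes IL-1 alpha, which epithelial cells store and release on damage. Its single transcript, Il1a-201, carried the whole signal. The gene was 7.22, 5.55, 5.29, 3.24 and 12.8 in WT mouse 1, and 18.1, 10.8, 12.5, 14.3 and 12.1 in WT mouse 2. The Tnfr2-/- mice had 12.3, 12.3, 11.8, 40.7 and 39.7 (mouse 1) and 12.4, 16.1, 12.0, 37.6 and 29.6 (mouse 2). Both Tnfr2-/- mice stayed between 11.8 and 16.1 up to 3 DPP and were 3.46-fold and 3.12-fold higher at 5 DPP than at 3 DPP, while WT mouse 1 went from 5.29 to 3.24 and WT mouse 2 from 12.5 to 14.3.

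On the late days Il1a reached 14.3 at most in WT and 29.6 at least in Tnfr2-/- libraries, without overlap. The ratio of means was 4.47 at 5 DPP and 2.78 at 7 DPP. The late genotype effect was a log2 of 1.85 (SE 0.38, limma adjusted p 0.0128). It lost its call without Tnfr2-/- mouse 1 at 7 DPP (1.75, adjusted p 0.0523) and without both late libraries of WT mouse 1, where Il1a was lowest (1.41, 0.0736). Over all days it was 1.01 (SE 0.28, adjusted p 0.0357), and the adjusted p was 0.0731 when libraries of a mouse were modelled as correlated. That call was lost in 10 of 20 fits without 1 library (WT mouse 1 at 1, 2, 3 and 7 DPP, WT mouse 2 at 7 DPP, Tnfr2-/- mouse 1 at 5 and 7 DPP, and Tnfr2-/- mouse 2 at 2, 5 and 7 DPP), with adjusted p up to 0.0746, and in 3 of 4 fits without a whole mouse (all but WT mouse 2, up to 0.278).

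Il18 (chromosome 9, 50554827 to 50581840, plus strand) encodes an epithelial cytokine that is cut by caspase-1. It was 30.3, 12.4, 17.5, 22.8 and 16.0 in WT mouse 1, and 18.6, 18.5, 16.3, 25.1 and 27.0 in WT mouse 2. In Tnfr2-/- mice it was 35.0, 22.0, 15.4, 28.2 and 58.6, and 20.95, 18.0, 17.2, 23.6 and 33.3. Only at 7 DPP were both Tnfr2-/- mice above both WT mice, with a ratio of means of 2.14. The late genotype effect was a log2 of 0.58 (SE 0.24, limma adjusted p 0.168) and was not called. It was 0.38 (adjusted p 0.446) without Tnfr2-/- mouse 1 at 7 DPP, the highest value of the gene. Il18-204 held 78.0% of the gene, and Il18-201, Il18-202 and Il18-203, with 5.75% to 9.92% each, the rest.

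Il1b (chromosome 2, 129364570 to 129371139, minus strand), the main IL-1 of activated myeloid cells, did not reach a mean of 1 and was not tested. No fold is given for it. Of 5 further ligand genes of the family, Il1f8, Il1f5 and Il1f10 were listed at 0 in all libraries and Il1f6 in 15 of 20, and Il1f9 (IL-36 gamma) averaged 1.96 in WT and 2.48 in Tnfr2-/- libraries without a called change.

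Il1rn (chromosome 2, 24336853 to 24351494, plus strand) encodes the IL-1 receptor antagonist, which occupies IL1R1 without signalling. Among the 7 members tested it was the one with lower fitted values in Tnfr2-/- cultures both early and late. Il1rn was 283, 126, 176, 305 and 394 in WT mouse 1, and 133, 167, 111, 208 and 182 in WT mouse 2. The Tnfr2-/- mice had 172, 108, 107, 142 and 160 (mouse 1) and 139, 131, 139, 192 and 175 (mouse 2). The Tnfr2-/- mice and WT mouse 2 stayed between 107 and 208, and WT mouse 1 stood above that range at 1, 5 and 7 DPP.

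At 5 and 7 DPP both WT mice were above both Tnfr2-/- mice, with ratios of the WT mean to the Tnfr2-/- mean of 1.54 and 1.72. The late genotype effect was a log2 of -0.64 (SE 0.27, limma adjusted p 0.182) and the effect over all days -0.42 (SE 0.16, 0.122), and neither was called. Leaving out WT mouse 1 at 7 DPP moved the late effect to -0.36, and leaving out both its late libraries moved it to -0.23, while it was called without WT mouse 2 altogether (-1.05, adjusted p 0.00609). Without WT mouse 2 at 1 DPP the effect over all days was called (-0.50, adjusted p 0.0457), and with all libraries rescaled to the same total as well (-0.49, 0.0436). Markers of goblet and deep secretory cells were high in the same WT mouse. Their summed level was 2354 and 1844 in WT mouse 1 at 5 and 7 DPP, against 285 and 922 in WT mouse 2 and 207 to 312 in the late Tnfr2-/- libraries. Of the 6 markers none was called late and Fcgbp was called lower over all days, and their part in the level of Il1rn was not tested.

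The gene has separate starts that give different first coding bases on a common body of 467 coding bases. Il1rn-201 begins with the signal peptide of the secreted antagonist (178 codons), and Il1rn-204, from the start further upstream, encodes an intracellular antagonist of 159 codons. Il1rn-202 starts near Il1rn-201 and has 162 codons. The first coding bases of each are shown with the transcript-specific ones in capitals (GENCODE M21, GRCm38, first base at 24345453, 24345350 and 24336983).
Il1rn-201: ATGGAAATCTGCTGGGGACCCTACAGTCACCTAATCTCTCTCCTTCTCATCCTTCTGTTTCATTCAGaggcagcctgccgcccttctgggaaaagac
Il1rn-202: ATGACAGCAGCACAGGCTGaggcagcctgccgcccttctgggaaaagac
Il1rn-204: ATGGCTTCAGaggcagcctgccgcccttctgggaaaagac

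Il1rn-201 held 38.3% of the gene and Il1rn-202 held 28.7%, while Il1rn-204 (16.6%) and the short Il1rn-205 (14.0%) made up the upstream start. The upstream share had a median of 30.8% and ran from 8.34% to 55.9%. By genotype it was 17.2% to 55.9% in WT (median 34.6%) and 8.34% to 40.5% in Tnfr2-/- libraries (median 27.4%), so the ranges overlapped over most of their length. The spread between the mice of 1 group was large, for example 20.3% and 55.9% in WT at 2 DPP. No transcript of Il1rn was called in any comparison.

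**Figure D3:**
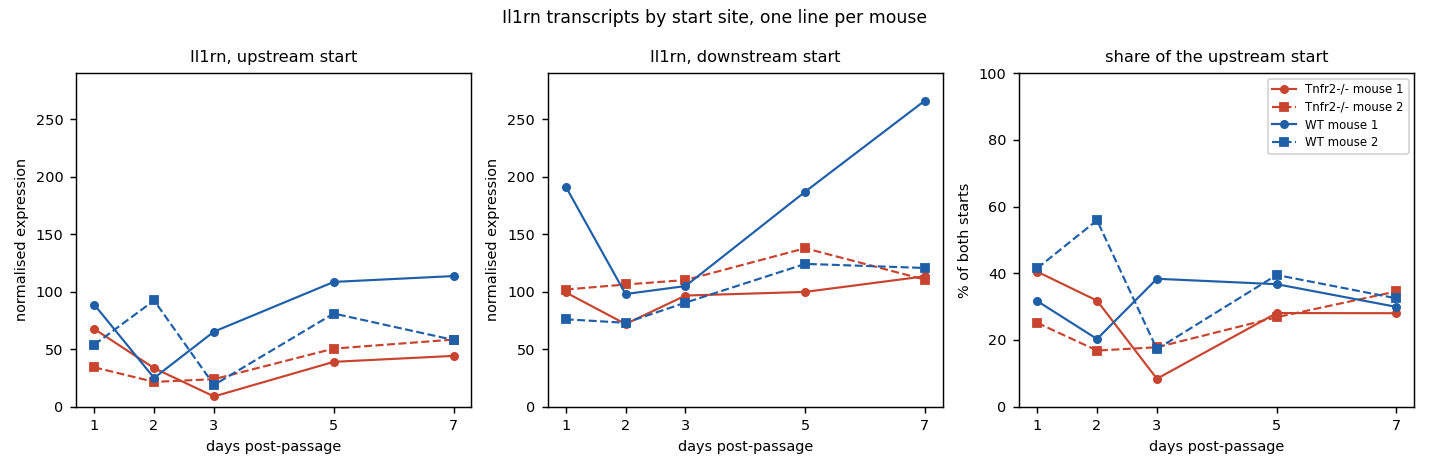
Normalised expression of Il1rn transcripts from the upstream start (left) and the downstream starts (middle), and the share of the upstream start in percent of both (right), by days post-passage with 1 line per mouse and no error bars. WT mouse 1 reaches 266 for the downstream starts at 7 DPP against 121 in WT mouse 2, and the upstream share varies between 8.34% and 55.9% without separating the genotypes.

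Il1r1 (chromosome 1, 40225080 to 40317257, plus strand) encodes the signalling receptor for IL-1. It was 55.2, 41.2, 31.9, 17.2 and 46.9 in WT mouse 1, and 55.3, 55.5, 68.5, 39.8 and 60.5 in WT mouse 2. In Tnfr2-/- mice it was 35.8, 20.5, 24.4, 38.8 and 64.1, and 36.1, 29.96, 37.2, 55.3 and 70.8. The order of the genotypes in these libraries differed between days, with overlap at 3 and 5 DPP. Both WT mice were above both Tnfr2-/- mice at 1 and 2 DPP (ratio of WT to Tnfr2-/- means 1.54 and 1.91), and both Tnfr2-/- mice were above at 7 DPP (ratio of Tnfr2-/- to WT means 1.26).

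The early genotype effect on Il1r1 was a log2 of -0.71 (SE 0.22, limma adjusted p 0.173) and the late one 0.56 (SE 0.27, 0.240). The late one was 0.27 without WT mouse 1 at 5 DPP, 0.18 without both late libraries of that mouse and 0.94 without WT mouse 2 altogether. The difference between them, 1.28 (SE 0.35), was not called either (adjusted p 0.184), and it was called only without WT mouse 2 at 5 DPP (1.57, 0.0433) among 20 fits that left out 1 library. Il1r1-202 carried 86.1% of the gene, and 13.2% was assigned to Il1r1-203, a short processed transcript without a coding sequence.

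Il1rap (chromosome 16, 26581704 to 26730117, plus strand) encodes the second chain of both receptors. It was 24.1, 17.3, 11.1, 9.83 and 14.3 in WT mouse 1, and 20.8, 20.98, 12.3, 15.8 and 23.5 in WT mouse 2. The Tnfr2-/- mice had 20.5, 18.3, 21.1, 23.0 and 48.9 (mouse 1) and 31.0, 21.1, 24.7, 31.2 and 44.5 (mouse 2). Up to 2 DPP the genotypes overlapped, and at 3, 5 and 7 DPP both Tnfr2-/- mice lay above both WT mice, with ratios of means of 1.96, 2.12 and 2.47. The late genotype effect was a log2 of 1.17 (SE 0.20, limma adjusted p 0.00429) and the effect over all days 0.69 (SE 0.16, 0.0151). Both kept their calls without each library in turn and lost them without WT mouse 1 altogether (0.84, adjusted p 0.0607, and 0.54, 0.0767) and without Tnfr2-/- mouse 2 (1.10, 0.205, and 0.56, 0.247). The late effect also lost its call without Tnfr2-/- mouse 1 (1.24, 0.141).

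Like Il1rl1, Il1rap encodes a membrane and a soluble form. Il1rap-201 (570 codons, membrane) and Il1rap-206 (360 codons, soluble) share 1051 coding bases and part at position 26701236 of chromosome 16, where the soluble transcript again reads on instead of being spliced. Shared bases are in lower case and form-specific bases in capitals.
Il1rap-206: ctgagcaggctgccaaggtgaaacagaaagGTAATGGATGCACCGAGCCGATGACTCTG
Il1rap-201: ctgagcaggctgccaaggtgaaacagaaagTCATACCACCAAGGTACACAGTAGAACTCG

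Here the membrane form dominated. Il1rap-201 held 85.8% of the gene, Il1rap-206 held 7.09%, and Il1rap-205, annotated as a target of nonsense-mediated decay, held 6.07%. The soluble share of Il1rap-201 and Il1rap-206 had a median of 7.34% (0% to 28.7%), and its ranges overlapped between WT (0% to 28.7%) and Tnfr2-/- libraries (1.73% to 16.1%). The receptor for IL-33 was thus measured mostly as its soluble transcript and its partner chain mostly as its membrane transcript.

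Of the 7 members tested, Il1rl1, Il1rap and Il1a were called higher in Tnfr2-/- cultures late, and none lower. Over all 13539 genes 6.45% were called in this comparison (3.8% higher, 2.64% lower). The same members were called over all days, where 7.6% of genes were called (4.51% higher, 3.09% lower). In the early comparison 0 of 7 were called (1.2% of all genes, 0.768% higher and 0.428% lower), although Il1r1, Il1rap, Il1rl1 and Il33 had unadjusted p under 0.05, and in the test of late against early effects 0 of 7 (0.148% of all genes, 0.118% higher and 0.0295% lower), with Il1a, Il1r1, Il1rap and Il1rl1 under that unadjusted limit. The median log2 fold change of the members late was 0.77, against -0.05 over all genes. Il1rl1 and Il1a did not overlap between genotypes on the late days, where 11.4% of genes did not overlap in either direction and 5.35% lay higher in Tnfr2-/- cultures. No member was without overlap over the early days (1.28% of genes, 0.576% higher in Tnfr2-/-) or over all days (0.229% of genes, 0.148% higher).

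These fits count the libraries of a mouse as independent. With libraries of a mouse modelled as correlated, the late calls of Il1rl1, Il1rap and Il1a were kept. Over all days Il1rl1 (limma adjusted p 0.0474) and Il1rap (0.0392) kept theirs, and Il1a lost its own (0.0731). On mouse means, 2 mice against 2, no member was called late (adjusted p 0.196 for Il1rl1, 0.260 for Il1rap and 0.233 for Il1a) and of all genes 0 were called. On the same means over all days Il1rl1 alone of the members was called (0.0299), and the share of all genes called in that fit is not given here. Without either Tnfr2-/- mouse, 0 of 7 were called late.

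**Figure D4:**
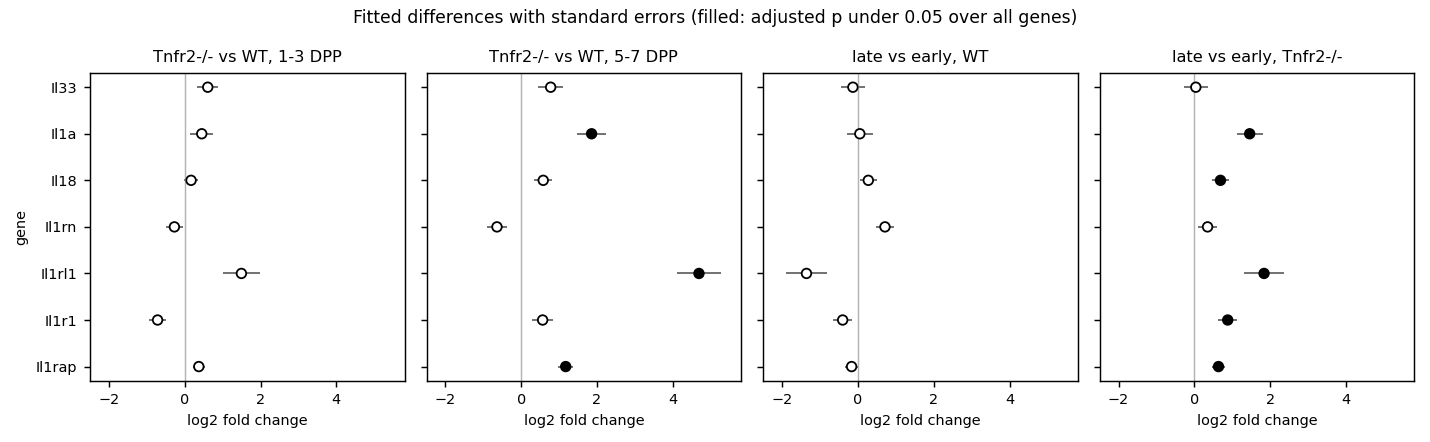
Log2 fold changes (horizontal axis) of the 7 members tested, as points with standard errors from limma, for Tnfr2-/- against WT at 1 to 3 DPP and at 5 to 7 DPP and for late against early days in each genotype, filled where the adjusted p over all genes was under 0.05. The late genotype difference of Il1rl1 sits at 4.69, and Il1a, Il18, Il1rl1, Il1r1 and Il1rap are filled for late against early in Tnfr2-/- cultures, while no member is filled in WT.

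Within a genotype, the late days were compared with the early days. In Tnfr2-/- cultures Il1a (log2 1.46, SE 0.35, limma adjusted p 0.00982), Il1rap (0.63, SE 0.18, 0.0238), Il1r1 (0.88, SE 0.25, 0.0249), Il1rl1 (1.83, SE 0.54, 0.0281) and Il18 (0.68, SE 0.22, 0.0393) were called higher late, 5 of 7 members, in a comparison that called 20.3% of all genes (10.4% higher, 9.93% lower). In WT cultures 0 of 7 were called (20.1% of all genes, 11.6% higher and 8.52% lower), and among members the unadjusted p was under 0.05 for Il1rl1 (-1.36, SE 0.54, adjusted p 0.0938) and Il1rn (0.71, SE 0.25, 0.0588). Cell type markers differed in this comparison too. The summed level of 9 fibroblast markers had a median of 4055 early and 6477 late in Tnfr2-/- libraries, and of 3948 and 2538 in WT. Of the 9, 3 were called higher late in Tnfr2-/- cultures, and 1 higher and 1 lower in WT. Of 6 goblet and deep secretory markers, 4 were called higher late in Tnfr2-/- cultures and 5 in WT. Their summed median went from 27.2 to 283 in Tnfr2-/- and from 120 to 1383 in WT libraries. The part of either marker list in the members' changes was not tested. With the mouse as a fixed block Il1rn was called higher late in WT (adjusted p 0.0177), and the 5 calls in Tnfr2-/- cultures were kept.

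In Tnfr2-/- cultures the call of Il1a held without each library, and the others rested on single libraries. That of Il1rl1 was lost without any of 8 libraries (mouse 1 at every day and mouse 2 at 1, 5 and 7 DPP, adjusted p up to 0.0837). Those of Il1r1 and Il1rap were lost without any of 6 (mouse 1 at 1, 2, 3 and 7 DPP and mouse 2 at 5 and 7 DPP, up to 0.105 and 0.108). That of Il18 was lost without any of 8 (mouse 1 at 2, 3, 5 and 7 DPP and mouse 2 at 1, 2, 3 and 5 DPP, up to 0.190). In WT cultures Il1rl1 was called lower late without mouse 1 at 7 DPP (-2.36, 0.000228), while without mouse 2 at 7 DPP its effect was -0.35 (0.328), and Il1rn was called higher without mouse 1 at 1 or 3 DPP or mouse 2 at 7 DPP (0.0139 to 0.0436).

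The 250 bases before the starts of the late-called members were read from RefSeq (GRCm38.p6), since these genes stood higher together. For each gene they are shown 5′ to 3′ on the gene's strand with motif matches in capitals: Il1a at chr2:129309973-129310222 (minus strand), the downstream start of Il1rl1 at chr1:40439379-40439628 (plus strand) and Il1rap at chr16:26581455-26581704 (plus strand).
Il1a: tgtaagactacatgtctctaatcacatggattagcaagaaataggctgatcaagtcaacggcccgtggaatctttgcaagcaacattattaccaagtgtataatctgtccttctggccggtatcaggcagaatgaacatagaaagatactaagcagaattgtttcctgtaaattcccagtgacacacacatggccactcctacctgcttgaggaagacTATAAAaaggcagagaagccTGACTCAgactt
Il1rl1: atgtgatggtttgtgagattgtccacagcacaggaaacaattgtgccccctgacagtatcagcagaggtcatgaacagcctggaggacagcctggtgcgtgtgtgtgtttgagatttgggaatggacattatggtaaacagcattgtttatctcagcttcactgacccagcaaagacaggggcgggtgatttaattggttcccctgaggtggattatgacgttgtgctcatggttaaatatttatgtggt
Il1rap: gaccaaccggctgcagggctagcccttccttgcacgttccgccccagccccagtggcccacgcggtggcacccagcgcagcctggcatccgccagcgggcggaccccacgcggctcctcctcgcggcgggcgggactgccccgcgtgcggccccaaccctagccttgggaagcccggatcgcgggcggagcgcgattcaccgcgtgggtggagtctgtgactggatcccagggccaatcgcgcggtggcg

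Searched on both strands were TATAAA (in 12.4% of 32851 promoters of this length), the AP-1 motif TGANTCA (6.75%), the kappaB motif (3.90%) and the STAT motif (7.02%). In Il1a, TATAAA began 32 bases and TGACTCA 12 bases before the start. The windows of Il1rl1 and Il1rap held none of these letters. Elsewhere in the family TATAAA was found 31 bases before the start of Il1b, and 203 and 29 bases before the starts of Il33. In Il18 it lay 175 bases before the start, on the other strand. That window (chr9:50554450-50554699) is not the one before Il18-204, which starts at 50565374. TGANTCA was found in the window of the upstream start of Il1rn, and the kappaB motif in that of the second start of Il1r1. A match is a description of letters and names no bound factor.

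Further receptors and decoys of the family included 6 genes, all tested. Late, 2 were called higher in Tnfr2-/- cultures and none lower (3.8% and 2.64% of all genes). These were the signalling chains of the IL-18 receptor, Il18rap (log2 1.47, SE 0.32, limma adjusted p 0.0170) and Il18r1 (1.32, SE 0.34, 0.0338). Il18r1 lay between 1.91 and 9.72 in late WT and between 12.9 and 18.8 in late Tnfr2-/- libraries, and Il18rap between 0.69 and 6.18 and between 8.68 and 15.7. Il1r2, the membrane decoy for IL-1, was called lower late than early in WT (-1.50, SE 0.37, adjusted p 0.0126, a direction called for 8.52% of all genes), from a median of 2.26 to 0.54. In Tnfr2-/- cultures Il18r1 (1.29, SE 0.31, adjusted p 0.0100) and Il18rap (0.98, SE 0.29, 0.0285) were called higher late than early (10.4% of all genes). Sigirr, Il18bp and Il1rl2 were not called in any comparison. The list's median log2 fold change late was 0.45.

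Genes known to respond to IL-1 were listed next, with results of these data already known, so their direction is no independent evidence. Of 16 such genes, 9 were called higher late in Tnfr2-/- cultures and none lower, with a list median of 0.94, against 3.8% of all genes called higher, 2.64% lower and a median of -0.05. Il6, a cytokine of activated stroma, stood at 0, 0 and 3.95 (lowest, median and highest) in the 4 late WT libraries and at 24.4, 36.8 and 44.5 in the 4 late Tnfr2-/- libraries (log2 4.58, SE 0.42, limma adjusted p 5.53e-05). Il11, a related cytokine of fibroblasts and repair, stood at 6.24, 22.0 and 438 in WT and at 239, 388 and 454 (3.51, SE 0.51, 0.00174), so its groups overlapped.

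Ptgs2, the inducible enzyme of prostaglandin synthesis, ran from 44.2 to 214 in late WT and from 412 to 560 in late Tnfr2-/- libraries (2.27, SE 0.32, limma adjusted p 0.00129). The neutrophil attractants Cxcl1 (12.9 to 61.9 against 98.8 to 129) and Cxcl2 (3.23 to 16.1 against 36.1 to 58.7) and the growth factor Csf3 (0.49 to 2.27 against 10.9 to 14.5) did not overlap either. The feedback inhibitors Tnfaip3 (0.88), Nfkbia (0.81) and Nfkbiz (0.69), which NF-kappaB induces, were called with smaller log2 fold changes. Of the 16, Il6 (3.38, SE 0.54, adjusted p 0.0403) and Il11 (3.86, SE 0.66, 0.0471) were also called for a larger effect late than early.

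Of these 16 genes, 7 were called higher over all days (Il6, Cxcl2, Csf3, Nfkbia, Cxcl1, Lcn2 and Nfkbiz) and 0 early, where 4.51% and 0.768% of all genes were called higher. With libraries of a mouse modelled as correlated the count over all days was 4, since Cxcl1 (limma adjusted p 0.0733), Lcn2 (0.0679) and Nfkbiz (0.0933) lost their calls. In Tnfr2-/- cultures 12 were called higher late than early, a direction called for 10.4% of all genes. In WT cultures Nos2 was called higher and Ptgs2 and Csf3 lower (11.6% and 8.52% of all genes). The late count was 9 with libraries of a mouse modelled as correlated, 7 without both late libraries of WT mouse 1 (where Saa3, at a log2 of -0.55, and Cxcl5, at -0.38, had the opposite sign and were not called in either fit), 1 without either Tnfr2-/- mouse and 0 on mouse means. The count over all days was 4 without any of 6 libraries (WT mouse 1 at 3 or 7 DPP, Tnfr2-/- mouse 1 at 7 DPP, or Tnfr2-/- mouse 2 at 3, 5 or 7 DPP). Summed fibroblast markers, given above, were higher in both Tnfr2-/- mice on each late day. Across all late libraries their ranges overlapped. Of 8 immune cell markers, summing to 11.5 to 21.03 in late WT and 26.1 to 50.9 in late Tnfr2-/- libraries, 3 were tested and Cd68 was called higher late (1.35, SE 0.24, adjusted p 0.0064). The part of either marker list in these differences was not tested.

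**Figure D5:**
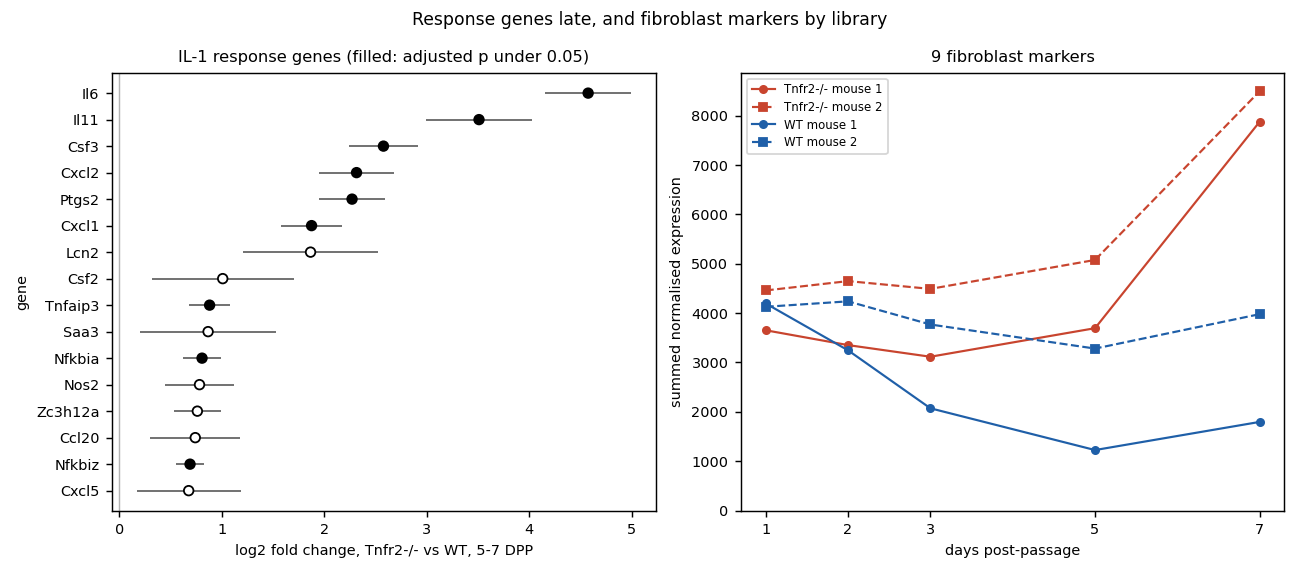
Left, log2 fold changes of 16 IL-1 response genes in Tnfr2-/- against WT cultures at 5 to 7 DPP (horizontal axis) with standard errors from limma, filled where the adjusted p over all genes was under 0.05. Right, summed normalised expression of 9 fibroblast markers by days post-passage, 1 line per mouse, with no error bars. All 16 points lie above 0 and 9 are filled (without both late libraries of WT mouse 1, Saa3 and Cxcl5 lie below 0), and the marker sum reaches 7878 and 8496 in the Tnfr2-/- mice at 7 DPP against 1796 and 3978 in the WT mice.

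The genes most like each member were sought by Pearson r over the 20 libraries, among 13539 genes. The libraries were read as coming from 4 mice and share their days. The genes found are a description. For Il1rl1 they were Serpine2, a secreted protease inhibitor (r 0.953), the urea transporter Slc14a1 (0.952) and Bdkrb2, a bradykinin receptor (0.951). For Il1rap they included the BMP antagonist Grem1 (0.941) and the matrix protease Mmp3 (0.924). For Il1a they were F3, which encodes tissue factor (0.929), Inhba, which encodes an activin subunit (0.924), and Basp1 (0.923). For Il1r1 they were Csrp1 (0.888), Wnt5a (0.876) and Sod3 (0.869). For Il1rn they were Klk1 (0.889), Khnyn (0.853) and Cdhr5 (0.841), for Il18 Tmed10 (0.902), Timm8b (0.845) and Adgrl2 (0.797), and for Il33 Ly6g (0.818), Rpl18 (0.808) and Pgap1 (0.799).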

How the data were processed

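mRNA was sequenced as stranded single-end libraries from colonoids on 5 days, of 2 WT and 2 Tnfr2-/- mice by the design text of the series. Per the labels' processing notes, the authors used CASAVA, kallisto, which divides reads between transcripts by a model so that similar transcripts can exchange them, and sleuth, with mm10. The deposited values are a signal per transcript, TPM that the authors scaled by library size factors. The authors' p-values, q-values, mean on the natural log scale and model terms were deposited in the same table and were not used. The study's methods give an approximate read number for its samples in general and the values keep no counts, so no counting interval is given.

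Of 113974 lines, 781 repeats were dropped, 113193 transcripts were kept, and values were summed per gene symbol. The 199 transcripts without a symbol held at most 0.0989% of a library. Library sums ran from 900655 to 1111080. limma 3.58.1 (R 4.3.3) with a mean-variance trend was fitted to log2(value + 1) for genes with a mean of at least 1. The pseudocount understates changes of low genes. p-values were adjusted by Benjamini-Hochberg over all genes, or all transcripts, tested. The effect over all days had day as a factor, and the other comparisons were contrasts of 10 group means. The plan had named counts or TPM, and the rule for normalised values was used. The code was tested on simulated data.

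Named were all 8 members, their transcripts of at least 5% of the gene, called genes of the lists and every gene of a list of 6 or fewer, the 3 genes most like each member (1 of which is not reported here), and Tnfrsf1b. Markers and libraries given beside a result were also named. The members and lists were chosen with earlier results of these data known. Alternatives covered pseudocount, filter, scaling, gene identifiers, trend, libraries left out, mouse blocks and mouse means. Replicate numbers were read as naming the mouse within a genotype, since the design text of the series gives 2 mice per genotype. The labels do not state this for each library, and values per mouse rest on that reading. The study's culture methods give 3 mice per genotype for each experiment, and its sequencing methods give 2 biological replicates per timepoint. Deviations from group means correlated at 0.0997 to 0.307 across days of the same WT mice and at -0.05 to 0.08 across days of the same Tnfr2-/- mice. All 34 transcripts were placed on GENCODE M21 (GRCm38), the same assembly as mm10.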

Additional observations from a re-analysis of the deposited data

Results flagged for a closer look

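Of 28 groups of a gene, genotype and phase (early or late days) with 4 or 6 libraries each, 2 held a library whose gap to its neighbour took most of the group's range on the log2 scale, by Dixon's 95% criterion. By chance about 1 in 20 groups would. Both concerned Il1a. In late WT libraries it was 3.24 in mouse 1 at 5 DPP, below the other 3 libraries, which lay between 12.1 and 14.3. In early Tnfr2-/- libraries it was 16.1 in mouse 2 at 2 DPP, above the other 5, which lay between 11.8 and 12.4.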

How the results depend on the processing

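The late genotype effect called 3 members under every other pseudocount, filter and scaling, without the trend and per Ensembl identifier. On mouse means, 2 mice against 2, it called 0, and the effect over all days called 1. For most of these alternatives the share of all genes called is not given. Their counts therefore do not say whether the members stood out from other genes. Without single libraries or whole mice, the number of members called ran from 0 to 5 late, 0 to 4 over all days, 0 to 2 early, 0 to 2 for the interaction (late against early genotype effect), 0 to 5 for late against early in Tnfr2-/- and 0 to 1 in WT. Without either Tnfr2-/- mouse the late comparison called 0 members, with 1 library left per Tnfr2-/- group, whose spread was taken from the WT groups. Without WT mouse 2 it called 5. Fits without a whole mouse, other than over all days, and without WT mouse 1 at 5 and 7 DPP, were chosen after seeing the data. The latter called 1 member for the interaction and 1 for late against early in WT. In Tnfr2-/- late against early, 3 members were called without a filter and 3 with libraries rescaled to the same total.

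For the replicate block, the replicate number as an additive term called 1 member early and 1 for the interaction, Il1r1 in both, and 4 over all days with Il33 added. These numbers are not shared between animals of the 2 genotypes, and same-numbered libraries correlated at -0.05 to 0.08. The mouse as a fixed block called 1 member late against early in WT (Il1rn) and the mouse as a correlated block lost the call of Il1a over all days. It changed no other member's call.

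Member transcripts with a mean of at least 5 gave 3 calls over all days and 3 for late against early in Tnfr2-/- (0 and 1 with a mean of at least 1), and a pseudocount of 0.1 gave 1 for late against early in WT. Without single libraries, transcripts called ran from 1 to 5 late, 0 to 2 over all days, 0 to 1 early, 0 to 3 for the interaction, 0 to 3 in Tnfr2-/- and 0 to 2 in WT.

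Among the IL-1 response genes, all of whose alternatives were added after seeing the data, the count over all days was 4 without a filter, 4 with the correlated block, 4 without WT mouse 1 at 5 and 7 DPP and 0 on mouse means, and 0 to 9 without single libraries or mice. The late count was 0 on mouse means and 1 to 11 without single libraries or mice.

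Direction changed in effects that were not called. Without single libraries the log2 fold change ran from -0.19 to 0.52 for the interaction of Il33, -0.49 to 0.22 for Il33 late against early in WT, -0.34 to 0.0047 for Il1rap there, -0.41 to 0.51 for Il1a there, and -0.20 to 0.27 for Il33 in Tnfr2-/-. Without WT mouse 1 it was -0.077 for Il1a early, and late against early in WT -0.030 for Il1a and 0.13 for Il1rap. Without WT mouse 2 it was 0.099 for Il1r1 over all days, -0.40 for the interaction of Il33 and 0.44 for Il33 late against early in WT. Without Tnfr2-/- mouse 1 it was -0.13 for the interaction of Il33 and -0.26 for Il33 late against early in Tnfr2-/-. Without WT mouse 1 at 5 and 7 DPP the interaction of Il1rn was 0.043 and Il1rap late against early in WT 0.16. With libraries rescaled to the same total, Il1a late against early in WT was -0.018 and Il33 in Tnfr2-/- -0.046. The cause of these shifts was not tested. The values keep no counts, so the precision that read depth gives low genes such as Il33 and Il1a was not computed.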

Other observations

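Of 13 genes that process or release the precursors, 10 were tested. In WT cultures 8 were called higher late than early (20.1% of all genes were called in that comparison, 11.6% higher), among them Casp1, which cuts the precursor of IL-18 (log2 1.92, SE 0.32, limma adjusted p 0.00154), Pycard, the inflammasome adaptor (1.92, SE 0.30, 0.000914), and Nlrc4 (1.05, SE 0.20, 0.00314). In Tnfr2-/- cultures 5 were (Casp4, Nlrc4, Aim2, Casp8 and Casp1; 20.3% of all genes were called there, 10.4% higher), with Casp4 at 1.41 (SE 0.19, 0.000334). Only Casp8 of the 10 was called by genotype, higher late (0.53, SE 0.14, 0.0433) and over all days (0.44, SE 0.12, 0.0325), where 6.45% and 7.6% of all genes were called. Nlrp3 averaged 0.08 and was not tested. In WT cultures 5 of 6 goblet and deep secretory markers and 3 of 7 epithelial markers were called higher late than early as well. In Tnfr2-/- cultures 4 of the 6 were called higher, and of the 7, 2 were called higher and 2 lower. The part of these markers in the changes of the processing genes was not tested.

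Of 11 adaptors and kinases that carry the signal of IL-1 and IL-33, all tested, 0 were called by genotype in limma over all days, late or early (7.6%, 6.45% and 1.2% of all genes were), and their median log2 fold change late was -0.10. At an unadjusted p under 0.05, Irak2 had positive values over all days (0.33, SE 0.11, adjusted p 0.0714) and early (0.39, SE 0.14, 0.255), and Map3k7 a negative one late (-0.35, SE 0.14, 0.174).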
